A study of Homo sapiens with 10 samples.

Results

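The 10 genes described here take glucose into the cell and carry it through glycolysis to lactate. They were chosen by symbol, as SLC2A1, SLC2A3, HK1, HK2, PFKFB3, PFKFB4, ALDOA, PGK1, ENO1 and LDHA, from the 28380 genes with a row in the count table, and all 10 had counts high enough to be tested. RNA was sequenced from RPE-1, an established line of human retinal pigment epithelial cells immortalized with telomerase. One group of 5 replicates received the vehicle DMSO, and another group of 5 received 25 µM SFN (sulforaphane, an isothiocyanate of cruciferous vegetables), each for 4 h in complete medium. All libraries therefore came from 1 cell line, with cells counted out for each replicate per the study's methods.

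Glucose enters most cells through facilitative carriers of the SLC2A (GLUT) family and is trapped inside by phosphorylation, which hexokinases catalyze. The next committed step, made by phosphofructokinase, is stimulated by fructose 2,6-bisphosphate, a small metabolite that the PFKFB enzymes make and break down. The lower part of the pathway yields ATP and pyruvate, and lactate dehydrogenase turns pyruvate into lactate. Many of these genes are textbook targets of HIF-1, the hypoxia-inducible factor, which binds short DNA elements with the core ACGTG or GCGTG. In the retina, glucose passes from the blood to the photoreceptors across the pigment epithelium, where GLUT1, the product of SLC2A1, is the carrier best known for this.

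To show the DNA in front of members that fell and of the one that rose, the bases before the start site of 4 members are given below. They run 5′ to 3′ on the strand of the gene and come from RefSeq (GRCh38.p14), and capitals mark the HIF core ACGTG or GCGTG read on either strand. The PFKFB3 match is also an E-box, CACGTG, a motif that contains ACGTG and therefore counts under both.
HK2, chr2:74833877-74834126, plus strand: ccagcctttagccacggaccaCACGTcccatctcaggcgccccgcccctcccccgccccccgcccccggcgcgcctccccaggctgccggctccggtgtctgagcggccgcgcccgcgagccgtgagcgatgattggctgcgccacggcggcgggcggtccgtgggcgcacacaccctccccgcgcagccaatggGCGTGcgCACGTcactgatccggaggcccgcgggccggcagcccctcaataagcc
PFKFB3, chr10:6202682-6202931, plus strand: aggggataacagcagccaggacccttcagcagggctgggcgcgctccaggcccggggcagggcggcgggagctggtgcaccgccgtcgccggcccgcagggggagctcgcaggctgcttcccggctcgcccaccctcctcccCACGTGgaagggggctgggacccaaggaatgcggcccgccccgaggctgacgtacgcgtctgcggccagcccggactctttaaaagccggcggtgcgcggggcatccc
PFKFB4, chr3:48556804-48557053, minus strand: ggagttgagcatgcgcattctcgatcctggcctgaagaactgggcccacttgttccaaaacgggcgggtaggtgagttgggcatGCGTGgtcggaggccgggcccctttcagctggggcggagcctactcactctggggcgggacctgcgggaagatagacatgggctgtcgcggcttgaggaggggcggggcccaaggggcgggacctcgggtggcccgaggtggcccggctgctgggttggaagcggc
PGK1, chrX:78103998-78104247, plus strand: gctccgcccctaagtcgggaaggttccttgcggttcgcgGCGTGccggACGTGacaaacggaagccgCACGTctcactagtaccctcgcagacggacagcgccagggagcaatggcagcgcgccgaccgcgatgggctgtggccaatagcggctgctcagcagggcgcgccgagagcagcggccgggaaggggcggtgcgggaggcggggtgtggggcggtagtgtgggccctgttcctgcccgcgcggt
The printed stretches held 3 separate cores for HK2, 1 for PFKFB3, 1 for PFKFB4 and 3 for PGK1. HK2, PFKFB3 and PFKFB4 are the members that fell most, and PGK1 is the member that rose.

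Over windows of 300 bases, from 250 before to 50 after the start, a HIF core was found for 9 of the 9 members with a window, against 48.4% of 34943 promoter windows of that length. No window was matched to SLC2A3. The windows of these members were rich in GC, between 68.0% and 74.3%. An E-box CACGTG stood in the windows of 2 members, PFKFB3 and LDHA, against 7.23% of all windows. The CRE core TGACGTCA was found for 1 member, LDHA (1.84% of all windows), and the antioxidant element core TGACNNNGC for 0 of the 9 (13.3% of all windows), all on both strands. A match says only that these letters are present, and members that rose, fell or did neither all held the HIF core. For HK1 the window nearest the canonical start of GENCODE 44 lay 217 bases from it, and for the other members the starts were the same.

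The counts summed to between 15689294 and 20666692 per library in DMSO and between 12375860 and 17308706 in SFN. DMSO replicate 1 stood apart from the other libraries, with a mean Spearman correlation across genes of 0.935 with the other DMSO replicates, against 0.979 to 0.982 for each of those with the rest of the group. The 10 members together made up 0.332% of the scaled counts in that library, between 0.556% and 0.622% in the other DMSO libraries and between 0.589% and 0.619% in SFN. Each member except HK2 was lower there than the mean of the other DMSO replicates, with log2 differences from -0.04 (SLC2A3) to -1.13 (ALDOA). The members and the counts of each gene list are therefore given both with and without this library, and other genes where leaving it out changed the call. Why it differs was not tested. Of 17 markers of retinal pigment epithelium, MITF, OTX2, TJP1, KRT8 and KRT18 were well detected, and BEST1, a chloride channel of this epithelium, ranged from 5.42 to 107 CPM. Of the last 500 transcript bases of BEST1, 177 are covered by the abundant FTH1 on the opposite strand, so reads of both cannot be told apart. RPE65, RLBP1, TYRP1, TTR and SERPINF1 stayed under 0.3 CPM (counts scaled to a common library size) in every library, and TYR, DCT and CDH1 had no row in a table that lists genes with at least 1 count. PMEL, LRAT and CDH3 peaked at 1.79, 0.894 and 0.223 CPM. The summed level of this list was 719 to 935 CPM in DMSO and 718 to 1079 CPM in SFN. Most of it was KRT8 (316 to 539 CPM) and KRT18 (169 to 318 CPM), so the sum says little about the other markers. Of 11 markers of blood and immune cells, 6 had no row and the sum stayed at or below 3.45 CPM. The sum of 11 endothelial, neuronal and photoreceptor markers was 23.0 to 35.5 CPM, most of it SYT1 (20.2 to 33.0 CPM). KDR reached 5.70 CPM and SNAP25 1.62 CPM. Less RNA per cell and fewer cells cannot be told apart in bulk samples.

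SFN was compared with DMSO by the quasi-likelihood test of edgeR, fitted across the 13378 genes that passed a filter on low counts, and p-values were adjusted over all of them. A gene is called increased or decreased where its adjusted p is under 0.05, and each log2 fold change is given with its standard error (SE). Of the 10 members, 5 were called, 1 of them increased and 4 decreased. Over all tested genes the share past this threshold was 23.0%, with 9.07% increased and 13.9% decreased. For the members the median of the log2 fold changes was -0.03, and for all genes tested it was also -0.03. Without DMSO replicate 1, 7 members passed, 2 increased and 5 decreased, where 46.1% of all genes tested did (22.5% increased and 23.5% decreased). The groups did not overlap in 4 members, 2 higher and 2 lower in SFN, against 19.9% of tested genes (8.78% higher and 11.1% lower). Leaving DMSO replicate 1 aside, this held for 7 members, 2 higher and 5 lower, against 36.2% (16.6% and 19.6%). No member changed more than 2-fold, which 8.69% of tested genes did with an adjusted p under 0.05. The fitted log2 fold changes, whether past the threshold or not, were negative for SLC2A1, SLC2A3, HK2, PFKFB3 and PFKFB4 and positive for HK1, ALDOA, PGK1, ENO1 and LDHA, where that of LDHA turned negative with quantile normalization. A difference between the upper and the lower pathway was not tested. Of the genes called over the whole table, 39.5% were increased with TMM scaling, 27.5% with scaling by library size only, which moved the median of all genes to -0.11, and 48.9% without DMSO replicate 1.

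SLC2A1 encodes GLUT1, the carrier for basal glucose uptake, on chromosome 1 of GRCh38 from 42925353 to 42958893 (minus strand). In DMSO it stood at 141, 251.9, 231, 263 and 240 CPM in replicates 1 to 5, and in SFN at 201, 198, 197, 195 and 212 CPM. The SFN libraries lay close together, below 4 of the DMSO libraries and above DMSO replicate 1. With all libraries the mean was 225 ± 48.8 CPM (SD, n = 5) in DMSO and 201 ± 6.71 CPM (SD, n = 5) in SFN, and the log2 fold change of -0.17 ± 0.15 (SE) did not pass the threshold (edgeR adjusted p = 0.50). Without DMSO replicate 1 SLC2A1 fell by 18.8% (log2 fold change -0.30, edgeR adjusted p = 0.0038), and the groups no longer overlapped. On the opposite strand, a long noncoding RNA with no row in the counts covers 497 of the last 500 transcript bases of SLC2A1, the end that the 3′ libraries read. Since the use of strand in the counting is not given in the sources used here, reads of this partner cannot be told apart from those of SLC2A1.

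SLC2A3 encodes GLUT3, a carrier with high affinity for glucose, on chromosome 12 from 7919230 to 8019007 (minus strand). The DMSO libraries held 12.8, 13, 11.3, 14.1 and 14.4 CPM and the SFN libraries 9.24, 8.63, 8.49, 10.7 and 10.3 CPM. Every SFN library was below every DMSO library, and DMSO replicate 1 was near the middle of its group. SLC2A3 fell by 27.9% (log2 fold change -0.47 ± 0.12 SE, edgeR adjusted p = 0.014), and by 28.5% without DMSO replicate 1. The call was lost with no filter on low counts (adjusted p = 0.052 by edgeR) and with quantile normalized voom values (log2 fold change -0.32, adjusted p = 0.094 by limma), and 17 of 19 alternatives kept it. The counts behind it were low, from 100 to 286 per library. Its near-identical neighbor SLC2A14 had 1 count in all, so few reads were assigned to the copy.

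HK1 and HK2 encode the hexokinases that phosphorylate glucose on entry, HK1 in most cells and HK2 as the inducible form. HK1, on chromosome 10 from 69269984 to 69401884 (plus strand), stood between 560 and 615 CPM in DMSO replicates 2 to 5, at 284 CPM in replicate 1 and between 528 and 629 CPM in SFN. The log2 fold change was 0.16 (± 0.19 SE, edgeR adjusted p = 0.59) and 0.00 (± 0.08 SE) without DMSO replicate 1. With all libraries, an interval of 2 standard errors on either side ran from a change of -13.3% to one of 45%. That spread, which includes DMSO replicate 1, leaves room for a change of HK1 in either direction.

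HK2, on chromosome 2 from 74834127 to 74893359 (plus strand), had the smallest adjusted p of the members. The DMSO libraries stood at 96.9, 87.3, 91.6, 93.9 and 92.9 CPM and the SFN libraries at 54.8, 54.2, 57.0, 54.1 and 47.9 CPM. All SFN values lay far below all DMSO values, and DMSO replicate 1 was the highest of its group. HK2 fell by 42%, from 92.5 ± 3.52 to 53.6 ± 3.42 CPM (SD, n = 5 each, log2 fold change -0.79 ± 0.09 SE, edgeR adjusted p = 7.4e-05). Without DMSO replicate 1 it fell by 41.6%. As a description, the 5 tested genes whose log2 CPM followed HK2 most closely over the 10 libraries were RHOB, CBX2, SOX11, PPP1R3C and BHLHE40, with Pearson correlations between 0.985 and 0.988. The points share the treatment, and 555 tested genes had a correlation above 0.9 with HK2. Within the groups the correlations of these 5 were between 0.31 and 0.61.

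PFKFB3 and PFKFB4 encode enzymes that make and degrade fructose 2,6-bisphosphate. PFKFB3, known for a high kinase activity that favors glycolysis, lies on chromosome 10 from 6144934 to 6254644 (plus strand). It stood at 18.9, 31.4, 33.5, 30.4 and 31.8 CPM in DMSO and at 20.4, 18.5, 19.96, 23.2 and 21.9 CPM in SFN. DMSO replicates 2 to 5 were all above SFN, but DMSO replicate 1 lay within the SFN range. PFKFB3 fell by 28.9% (log2 fold change -0.49 ± 0.15 SE, edgeR adjusted p = 0.038). It fell by 34.8% without DMSO replicate 1 (adjusted p = 1.3e-04), where the groups did not overlap. With all libraries this call was close to the threshold, and it was past it in 7 of 19 alternative analyses. Leaving out DMSO replicate 1 kept the call and leaving out any other single library lost it, with log2 fold changes between -0.62 and -0.44.

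PFKFB4, on chromosome 3 from 48517684 to 48562015 (minus strand), was measured with few counts, from 51 to 208 per library. Its values were 4.48, 9.48, 6.82, 9.16 and 9.89 CPM in DMSO and 4.23, 5.78, 4.62, 3.44 and 5.51 CPM in SFN. Again DMSO replicate 1 lay among the SFN libraries and the other 4 above them. PFKFB4 fell by 41% (log2 fold change -0.76 ± 0.23 SE, edgeR adjusted p = 0.033) and by 47.1% without DMSO replicate 1, and 12 of 19 alternatives kept it past the threshold. The call was lost without DMSO replicate 2, 4 or 5 or SFN replicate 1, 3 or 4, and with single libraries left out the log2 fold change ran from -0.92 to -0.67. Another gene of the family, PFKFB2, which is not among the 10 genes, had a log2 fold change of -0.49 (± 0.22 SE, edgeR adjusted p = 0.14) and of -0.64 without DMSO replicate 1 (adjusted p = 0.0024).

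ALDOA encodes the aldolase that splits fructose 1,6-bisphosphate, on chromosome 16 from 30064164 to 30070457 (plus strand). It ranged from 7.35 to 19.2 CPM in DMSO and from 16.3 to 24.7 CPM in SFN. The lowest value was that of DMSO replicate 1 and the highest that of SFN replicate 2. The log2 fold change of 0.39 ± 0.22 (SE) did not pass the threshold (edgeR adjusted p = 0.25), and it was 0.21 without DMSO replicate 1. With 118 to 422 counts per library, these values are low for this gene and uncertain. A second protein-coding gene model on the same strand covers all of the last 500 transcript bases of ALDOA, held 165 counts in all, and could have split or removed its reads.

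PGK1 encodes phosphoglycerate kinase, which makes the first ATP of the lower pathway, and its gene on chromosome X runs from 77910739 to 78129295 (plus strand). The DMSO libraries stood at 175, 216, 200, 208 and 213 CPM and the SFN libraries at 278, 302, 285, 276 and 256 CPM. The groups did not overlap, and the lowest SFN library was well above the highest DMSO library. PGK1 rose by 37.9%, from 202 ± 16.3 to 279 ± 16.4 CPM (SD, n = 5 each, log2 fold change 0.46 ± 0.10 SE, edgeR adjusted p = 0.0049). It rose by 32.9% without DMSO replicate 1, and 19 of 19 alternatives kept the call.

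ENO1 encodes the enolase of most tissues, on chromosome 1 from 8861000 to 8879190 (minus strand). It stood at 2141, 3483, 2931, 3370 and 3194 CPM in DMSO and at 4038, 4011, 3743, 3665 and 3734 CPM in SFN. Every SFN library was above every DMSO library. The log2 fold change was 0.34 ± 0.14 (SE), which was not past the threshold (edgeR adjusted p = 0.095). Without DMSO replicate 1, the lowest of its group, ENO1 rose by 17.9% (log2 fold change 0.24, adjusted p = 0.022).

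LDHA encodes the lactate dehydrogenase subunit that favors lactate formation, on chromosome 11 from 18394560 to 18408425 (plus strand). It ranged from 862 to 1154 CPM in DMSO and from 1098 to 1197 CPM in SFN, and the groups overlapped. The log2 fold change was 0.10 (± 0.11 SE, edgeR adjusted p = 0.58), 0.03 without DMSO replicate 1 and -0.03 with quantile normalized voom values. An interval of 2 standard errors ran from a change of -7.89% to one of 24.4%. The 6 pseudogenes named after LDHA held 741 counts beside its 176013. These counts do not show how many reads matched LDHA and a copy equally. The handling of such reads is not given in the sources used here.

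**Figure D1:**
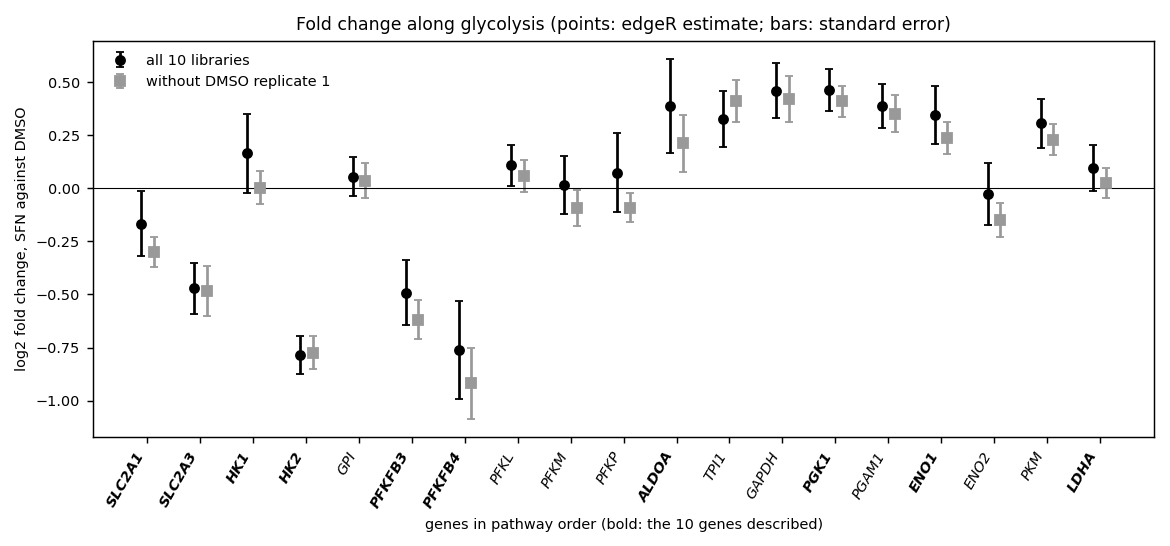
Log2 fold change (SFN against DMSO) of the members (bold) and of other glycolytic genes in the order of the pathway, with all 10 libraries (black circles) and without DMSO replicate 1 (gray squares), and with standard errors as bars. Values run from -0.79 for HK2 to 0.46 for PGK1 with all libraries, and HK1, ALDOA and ENO1 move toward 0 without DMSO replicate 1.

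Some steps have a pair of paralogs, genes for the same step, so the ratio of both within a library shows whether they moved unequally, free of the library scaling. Ratios were compared as log2 values by a two-sided exact permutation test over the 10 libraries, for which the smallest possible p is 0.0079, with adjustment over 6 pairs. The ratio of HK2 to HK1 dropped by 1.0 on the log2 scale in SFN (p = 0.0079 by exact permutation, adjusted p = 0.024). It lay between -2.75 and -1.55 in DMSO and between -3.71 and -3.28 in SFN, and the highest value was that of DMSO replicate 1. Without that library the difference was -0.78, so the move of HK2 against HK1 did not rest on it. The ratio of ENO2, the neuronal enolase, to ENO1 dropped by 0.36 (p = 0.0079 by exact permutation, adjusted p = 0.024), again with no overlap, and by 0.38 without DMSO replicate 1. The ratio of ALDOC, the brain aldolase, to ALDOA was higher by 1.22 (p = 0.024 by exact permutation, adjusted p = 0.048), from only 5 to 47 counts of ALDOC per library and uncertain counts of ALDOA. This call was kept in 3 of 12 alternatives, and leaving out any single library other than DMSO replicate 1 or SFN replicate 3 lost it.

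The ratio of SLC2A3 to SLC2A1 differed by -0.34 (p = 0.048 by exact permutation, adjusted p = 0.071) and by -0.18 without DMSO replicate 1, so an unequal change of the carriers was not established. For PFKFB4 over PFKFB3 the difference was -0.24 (p = 0.32 by exact permutation, adjusted p = 0.38), with the SFN libraries spread from -2.71 to -1.65. LDHB over LDHA differed by 0.16 with all libraries (p = 0.72 by exact permutation, adjusted p = 0.72) and by 0.59 without DMSO replicate 1 (adjusted p = 0.024). LDHB, the subunit that favors the reverse reaction, was measured with only 23 to 124 counts, and another gene model on its strand covers 238 of its last 500 transcript bases, so its level is uncertain. The log2 fold change of LDHB itself was 0.05 (adjusted p = 0.95) and 0.59 without DMSO replicate 1 (edgeR adjusted p = 0.038).

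**Figure D2:**
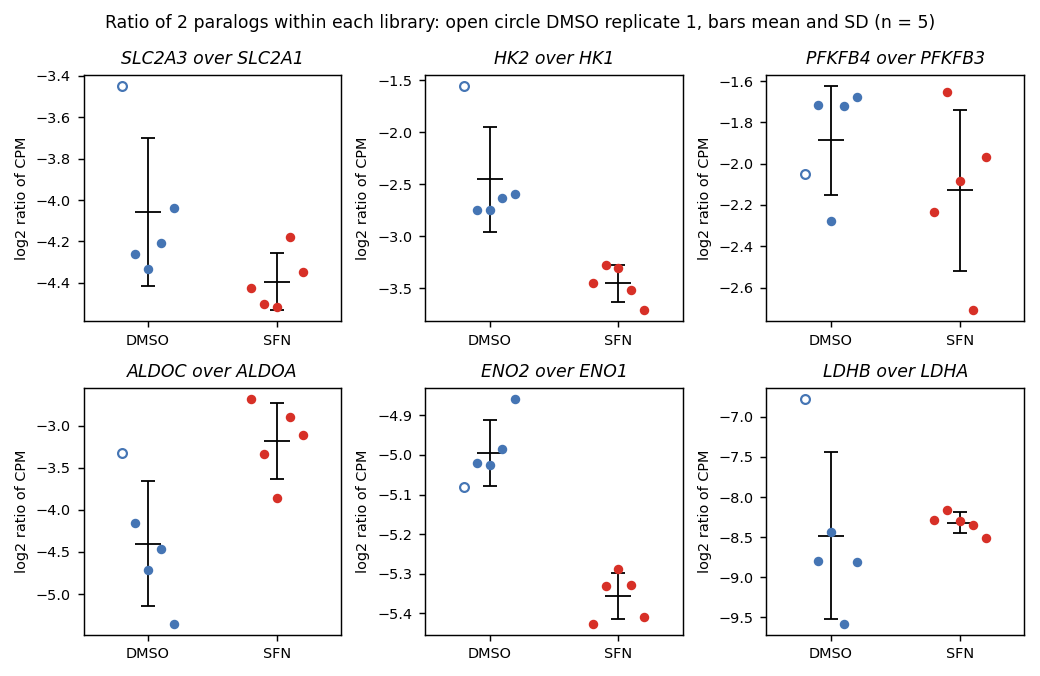
Log2 ratio of the CPM of a pair of paralogs in each DMSO library (blue, replicate 1 as an open circle) and SFN library (red), with the mean and SD (n = 5). The ratio of HK2 to HK1 lies at or below -3.28 in SFN and at or above -2.75 in DMSO, and that of ENO2 to ENO1 also shows no overlap.

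The other genes of glucose metabolism were taken from 8 lists with 145 genes, of which 104 were tested. Of these, 14 were increased and 7 decreased in the edgeR test, 20.2% of them, near the 23.0% of all genes. Without DMSO replicate 1 the counts were 27 and 16 of 104, where 46.1% of all genes tested were called (22.5% increased and 23.5% decreased). The counts of single lists without that library, given below, stand against these same shares. Those with all libraries stand against 9.07% increased and 13.9% decreased. Among the alternatives, sample quality weights in limma gave the most calls, 7915 of 13378 tested genes. Among 18 other glycolytic enzymes, 4 were increased and 0 decreased, 22.2% of them, with a median log2 fold change of 0.06. These counts were 7 and 1 without DMSO replicate 1, and with other scalings, filters and tools they ran from 1 to 7 increased and from 0 to 2 decreased, the lowest being 1 and 0 with library size only and with the replicate block. GAPDH, the dehydrogenase just before PGK1, rose by 37.5% (log2 fold change 0.46 ± 0.13 SE, edgeR adjusted p = 0.024). PGAM1, the mutase between PGK1 and enolase, rose by 31.0% (log2 fold change 0.39 ± 0.10 SE, edgeR adjusted p = 0.018). Both had every SFN library above every DMSO library, and both calls were lost with library size only, no low-count filter, quantile voom and the replicate block. The GAPDH call was also lost without DMSO replicate 3 or 4 or SFN replicate 1, its log2 fold change running from 0.35 to 0.52 with single libraries left out. Of the last 500 transcript bases, noncoding RNAs on the opposite strand cover 422 of GAPDH and 248 of ALDOC. They held 2431 and 17 counts in all, and reads of each pair cannot be told apart there. ALDOC (log2 fold change 1.82) and the muscle enolase ENO3 (1.26) were the remaining calls, and ENO3 was past the threshold in 8 of 19 alternatives. Its highest value was 36.9 CPM in SFN replicate 2, against at most 16.6 CPM in the other SFN libraries, and without that library its log2 fold change was 0.82. Leaving out any single library other than DMSO replicate 1 or SFN replicate 4 lost the ENO3 call. PKM, the pyruvate kinase gene, had a log2 fold change of 0.31 (adjusted p = 0.076) and TPI1, the triose phosphate isomerase, one of 0.33 (adjusted p = 0.10), and both passed without DMSO replicate 1 (0.23 and 0.41, adjusted p = 0.020 and 0.0037 by the same test). The upper enzymes GPI, PFKL, PFKM and PFKP had log2 fold changes of 0.06, 0.11, 0.02 and 0.07, none past the threshold, and those of GPI, PFKM and PFKP turned negative with scaling by library size only.

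Of 8 other sugar carriers tested, 0 passed the threshold with all libraries in the edgeR test, and the median log2 fold change was 0.02. Without adjustment, 2 had a p under 0.05 in each direction, and DESeq2 called 1 in each. Without DMSO replicate 1 the calls were 1 increased, SLC5A2, and 2 decreased, SLC2A11 and SLC5A3, and the other alternatives gave 0 to 3 and 0 to 2. RUSF1 on the opposite strand, with 4951 counts in all, covers the last 500 transcript bases of SLC5A2, so its level is uncertain. Among 17 genes for the fate of pyruvate and lactate, 0 were increased and 3 decreased, 17.6% against 23.0% of all genes tested. These 3 were all genes of pyruvate dehydrogenase phosphatase, which switches on the entry of pyruvate into mitochondrial oxidation. With other scalings, filters and tools, 0 to 4 genes of this list were increased and 2 to 4 decreased. When DMSO replicate 1 was left out, the lactate carrier partner BSG, the mitochondrial pyruvate carrier genes MPC1 and MPC2 and the pyruvate dehydrogenase subunit PDHA1 were increased, and DLAT, another subunit of that complex, was decreased as well, which made 4 and 4. PDP1, a catalytic subunit, stood at 67.9 to 115 CPM in DMSO and at 29.6 to 53.8 CPM in SFN and fell by 58.8% (log2 fold change -1.28 ± 0.19 SE, edgeR adjusted p = 5.9e-04). PDP2, the other catalytic subunit, stood at 25.1 to 31.8 CPM in DMSO and at 10.4 to 14.3 CPM in SFN and fell by 56.4% (log2 fold change -1.20 ± 0.12 SE, edgeR adjusted p = 3.7e-05). PDPR, the regulatory subunit, fell by 22% (log2 fold change -0.36, adjusted p = 0.044), past the threshold in 8 of 19 alternatives. PDP1 and PDP2 thus had larger changes than any of the 10 members. PDK1, a kinase with the opposite action, had a log2 fold change of 0.10 (adjusted p = 0.62). The lactate carriers SLC16A1 and SLC16A3 had log2 fold changes of -0.17 and -0.19 (adjusted p = 0.49 and 0.40), and BSG one of 0.38 (adjusted p = 0.089), or 0.45 without DMSO replicate 1 (adjusted p = 0.0087). SLC16A1 was at 0.00 without DMSO replicate 1, which held 309 CPM against at most 193 CPM in the other DMSO libraries. CSNK1D on the opposite strand, with 12302 counts in all, covers 336 of the last 500 transcript bases of SLC16A3. Reads of these genes cannot be told apart there.

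The hexosamine pathway branches off early and makes UDP-N-acetylglucosamine. Of its 12 tested genes, 1 was increased and 2 decreased, 25% against 23.0% of all genes tested. The counts were the same without DMSO replicate 1, and from 0 to 2 and 1 to 3 with other scalings, filters and tools. UAP1L1, a relative of the enzyme of the last step, fell by 60.2% (log2 fold change -1.33 ± 0.15 SE, edgeR adjusted p = 7.3e-05), with no SFN library above 12.9 CPM and no DMSO library below 18.7 CPM. AMDHD2, a deacetylase, fell by 49.2% with all libraries and fell by 35.2% without DMSO replicate 1, which held 60.3 CPM against at most 30.7 CPM in the other DMSO libraries. Its log2 fold change ran from -1.08 to -0.63 with single libraries left out. The AMDHD2 call was lost without SFN replicate 1 or 5 and with quantile voom. GNPDA1, a deaminase that works in the direction of glycolysis, rose by 32.7% (log2 fold change 0.41 ± 0.09 SE, edgeR adjusted p = 0.0077). This call was kept in 17 of 19 alternatives and lost with library size only and with no low-count filter. GFPT1 and GFPT2, for the first and rate-limiting step, had log2 fold changes of 0.26 and 0.01 (adjusted p = 0.15 and 0.99).

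Among 13 genes of gluconeogenesis and glycogen, 3 were increased and 0 decreased by edgeR, 23.1% against 23.0% of all genes tested. The counts became 4 and 1 without DMSO replicate 1, and with other scalings, filters and tools they ran from 2 to 5 and from 0 to 2. PCK2, the mitochondrial enzyme that makes phosphoenolpyruvate, stood at 4.52 to 7.04 CPM in DMSO and at 9.46 to 15.3 CPM in SFN (log2 fold change 1.07 ± 0.17 SE, edgeR adjusted p = 9.4e-04). G6PC3, a glucose-6-phosphatase found in many tissues, rose by 75.0% (log2 fold change 0.81 ± 0.16 SE, edgeR adjusted p = 0.0029). GBE1, the glycogen branching enzyme, had a log2 fold change of 0.32 with an adjusted p of 0.044 and was past the threshold in 6 of 19 alternatives.

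**Figure D3:**
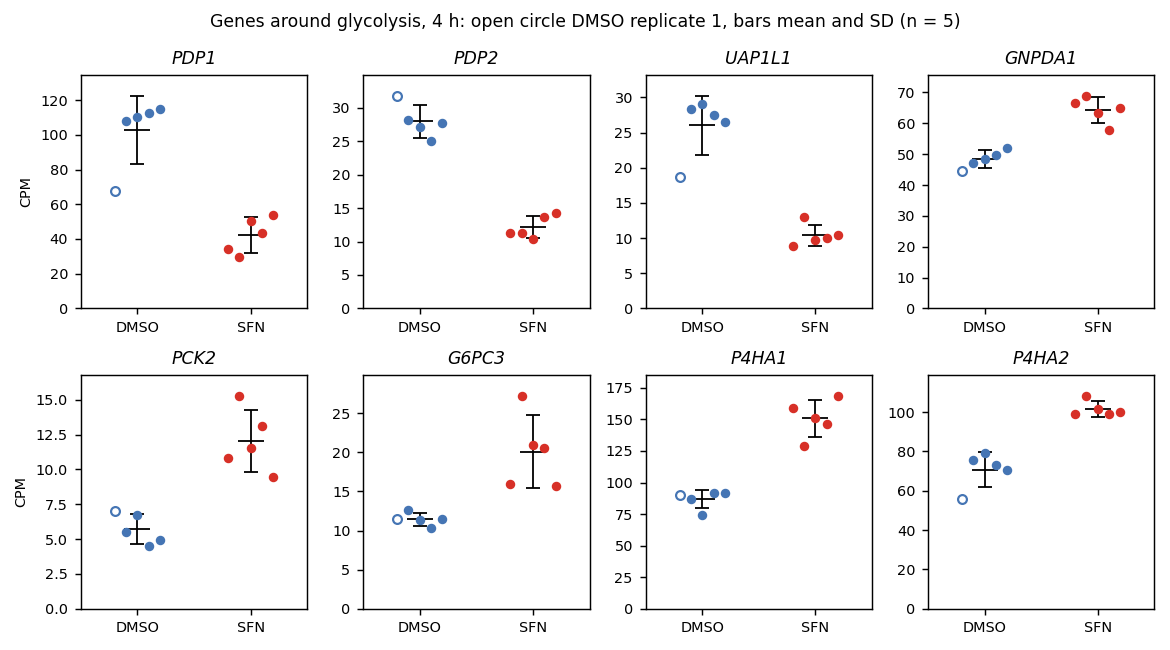
CPM (counts scaled by TMM to a common library size) of 8 genes around glycolysis, P4HA1 and P4HA2 being hypoxia targets, in DMSO (blue, replicate 1 as an open circle) and SFN (red) libraries, with the mean and SD (n = 5). All 8 are called genes without overlap between the groups, which 19.9% of all tested genes showed. PDP1, PDP2 and UAP1L1 are lower in SFN and GNPDA1, PCK2, G6PC3, P4HA1 and P4HA2 higher. Of the called genes not drawn, PDPR, GBE1, ENO3 and ARNT did overlap, and others, such as AMDHD2 and VHL, did not.

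Because many members are HIF-1 targets, the genes of the factor and its targets outside glycolysis were listed too. Of 8 genes for HIF subunits and the enzymes that control them, 0 were increased and 2 decreased by edgeR, 25% against 23.0% of all genes tested. The counts were the same at an unadjusted p under 0.05 and by DESeq2. There were 4 decreased without DMSO replicate 1 and with sample quality weights, in the former case with ARNT2 (log2 fold change -0.49, adjusted p = 0.0030 by edgeR) and HIF1AN (-0.28, adjusted p = 0.018 by edgeR) added. ARNT, the constitutive HIF subunit, fell by 36.0% (log2 fold change -0.64 ± 0.17 SE, edgeR adjusted p = 0.019), and VHL, part of the ligase that marks HIF for degradation, fell by 32.7% (log2 fold change -0.57 ± 0.14 SE, edgeR adjusted p = 0.014). ARNT was not past the threshold without DMSO replicate 3 or SFN replicate 4, with log2 fold changes of -0.58 and -0.64. Of the last 500 transcript bases of VHL, 159 are covered by a noncoding RNA on the opposite strand with no row in the counts. The log2 fold change of HIF1A was 0.02 (± 0.20 SE, edgeR adjusted p = 0.97) and turned to -0.14 without DMSO replicate 1 and was also negative with library size, upper quartile and quantile scaling. Of 21 hypoxia targets outside glycolysis, 5 were increased and 0 decreased by edgeR, 23.8% of them, near the share of all genes. They were 8 and 1 without DMSO replicate 1, and with other scalings, filters and tools they ran from 3 to 9 and from 0 to 2. Among the 5 were the collagen prolyl hydroxylases P4HA1 (log2 fold change 0.79 ± 0.11 SE, edgeR adjusted p = 2.4e-04) and P4HA2 (0.52 ± 0.11 SE, edgeR adjusted p = 0.0046), the lysyl hydroxylase PLOD1 (0.53) and the mitophagy receptor BNIP3L (0.53). The fifth, LOX, a lysyl oxidase that the rule for named genes did not select, had a log2 fold change of 0.47. VEGFA, the angiogenic factor and a classic HIF target, had a log2 fold change of 0.22 (± 0.20 SE, edgeR adjusted p = 0.49), and 0.05 without DMSO replicate 1. TXNIP and ARRDC4, arrestin-like proteins that lower glucose uptake, are known to respond to glucose. Their log2 fold changes in the same fit were -3.88 ± 0.26 and -1.70 ± 0.40 (SE, edgeR adjusted p = 1.9e-06 and 0.0094). In SFN they reached at most 0.81 and 0.706 CPM. ARRDC4 had only 4 to 40 counts per library, and DMSO replicate 1, at 0.498 CPM, lay within its SFN range.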

How the data were processed

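RNA of 10 RPE-1 libraries (5 DMSO, 5 SFN, 4 h) was sequenced as Lexogen QuantSeq 3′ libraries. The authors deposited raw, whole-number counts for each Ensembl gene, made with the Bluebee pipeline per the study's methods, while the submitters' processing notes name FastQC, STAR, featureCounts, edgeR and hg38/GRCh38. Strand use, molecular identifiers and annotation release are not given in the sources used here. From these counts, genes were filtered with filterByExpr, scaled by TMM and tested with edgeR 4.0.16 (glmQLFit, glmQLFTest, Benjamini-Hochberg) in R 4.3.3. Standard errors follow from the log2 fold change and its F statistic. CPM are counts scaled to a common library size.

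Members and lists were chosen with earlier results of these data known. Genes named are the members, the genes past the threshold up to 4 per list and direction by fold change, 20 fixed genes, and the 5 most like HK2. PFKFB2, LOX, SLC2A11, SLC5A2, SLC5A3, MPC1, MPC2, PDHA1, DLAT, ARNT2, HIF1AN and BEST1 were named after their values were seen. Replicates differed beyond sampling noise (chi-square per degree of freedom 3.69 to 278), and the study's methods give cells per replicate but not separate days or passages, so p-values measure only the spread between these samples, which may be technical. The study's methods state that its own test allowed for repeated measures, without defining which libraries these link. Same-numbered libraries did not deviate together as a rule (correlations -0.27 to 0.48, the highest for number 5), so they were not paired here. Alternatives used limma 3.58.1 and DESeq2 1.42.0, and methods were tested on simulated counts. Positions are from GENCODE 44. The result of 1 list is not reported here.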

Additional observations from a re-analysis of the deposited data

Results flagged for a closer look

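Within each group of 5 libraries, the gap between an extreme library and its nearest neighbor was divided by the range of the group, and a value above 0.71 marked a library standing apart. Of 108 groups examined, 27 were marked, where about 5 are expected by chance, and 21 of them concerned DMSO replicate 1. The cause was not tested. In the sentences below, each value is this gap ratio.

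Among the members, DMSO replicate 1 was low for SLC2A1 (0.738), HK1 (0.835) and PFKFB3 (0.786), and SFN replicate 2 was high for ALDOA (0.721). The ratio of HK2 to HK1 was high in DMSO replicate 1 (0.869). The share of scaled counts in the members was low in DMSO replicate 1 (0.774) and high in SFN replicate 1 (0.788), the latter at 0.619% against at most 0.596% in the other SFN libraries.

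Outside the members, DMSO replicate 1 was low for PFKP (0.864), GFPT1 (0.822), GFPT2 (0.841), HIF1A (0.761), VEGFA (0.855), ARRDC4 (0.747), PDP1 (0.854), UAP1L1 (0.757), ARNT (0.717) and PLOD1 (0.828). It was high for LDHB (0.76), SLC16A1 (0.885), SLC16A3 (0.811), AMDHD2 (0.792), VHL (0.734) and BNIP3L (0.77). SFN replicate 2 was high for GPI (0.808) and ENO3 (0.75) and low for GBE1 (0.718), and SFN replicate 5 was high for PDPR (0.758).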

How the results depend on the processing

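HK2 and PGK1 kept their call in 19 of 19 alternatives, SLC2A3 in 17, PFKFB4 in 12 and PFKFB3 in 7. SLC2A3, PFKFB3 and PFKFB4 lost it with quantile voom, SLC2A3 and PFKFB3 also with no low-count filter, and ENO1 and SLC2A1 gained a call in 4 and 3. Members increased numbered 2 by DESeq2, with quality weights and without both DMSO replicate 1 and SFN replicate 2 (added after seeing the data), and 1 to 2 with 1 library left out. Members decreased numbered 2 with no low-count filter, 1 with quantile voom and 2 to 5 with 1 library left out, where leaving out DMSO replicate 2, 4 or 5 or SFN replicate 1, 3 or 4 gave 2. Over the whole table, 7915 of 13378 tested genes were called with quality weights, and 6379 of 13415 without both libraries. List genes increased and decreased numbered 32 and 20 with quality weights, 28 and 18 without both libraries, and 10 to 27 and 5 to 16 with 1 left out. With library size only 6 were increased. With the replicate number as a block, 9 were increased, PFKFB3 lost its call, and 2441 genes in all were called; 1 of 5 DMSO libraries correlated best with its own number. With the difference of medians, no paralog ratio passed: -0.82 for HK2 over HK1, 1.35 for ALDOC over ALDOA and -0.31 for ENO2 over ENO1 (adjusted p = 0.095 by exact permutation). With 1 library left out, ALDOC over ALDOA ranged from 0.99 to 1.49, past the threshold only without DMSO replicate 1 or SFN replicate 3, and LDHB over LDHA from -0.11 to 0.59. Signs that turned, none at a called value except GFPT2 with quality weights, follow as log2 fold changes. With library size only: PFKP -0.036, GPI -0.035, PFKM -0.085, GFPT2 -0.10, HIF1A -0.090. With upper quartile scaling: PFKM -0.017, GFPT2 -0.019, HIF1A -0.018. With no filter: GFPT2 -0.0078. With quantile voom: LDHA -0.026, GPI -0.00088, HIF1A -0.096. With quality weights: PFKP -0.072, PFKM -0.052, SLC16A1 0.061, GFPT2 -0.43, HIF1A -0.15. Without both libraries: PFKP -0.093, GPI -0.020, PFKM -0.055, SLC16A1 0.028, GFPT2 -0.32, HIF1A -0.062. With 1 left out: PFKP -0.092 to 0.14, PFKM -0.093 to 0.064, SLC16A1 -0.23 to 0.0025, GFPT2 -0.22 to 0.13, HIF1A -0.14 to 0.095, LDHB -0.15 to 0.59, GPI -0.0017 to 0.079. The causes were not tested. Low counts limit PFKFB4, SLC2A3, ALDOA, ALDOC, LDHB, ARRDC4 and, in SFN, TXNIP.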
